A study of Homo sapiens and Mus musculus with 16 samples.

Results

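The basal subtype and squamous genes are 34 genes that mark the basal-like subtype of pancreatic cancer or the squamous (stratified, keratinizing) epithelial program. They were chosen by name, and open chromatin around them was read from 4 lists of ATAC-seq regions, gene by gene. All 34 were found in the human annotation, and for 27 a mouse gene shared the symbol. The 7 without a same-symbol mouse gene were TP63, UCA1, CTSV, SERPINB3, SERPINB4, KRT6C and ANXA8L1. Within 50 kb of their start sites lay 334 of 118107 regions in control, 313 of 97047 in HNF4G-KO, 195 of 68074 in primary tumor and 227 of 80843 in mets.

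Chromatin accessibility was measured by Omni-ATAC in 16 samples, 4 for each of 4 groups. HPAF-II, a human pancreatic adenocarcinoma line, was compared as control (Cas9; genotype labelled WT, treatment CRISPR-Cas9) and as HNF4G-KO, in which the transcription factor gene HNF4G was disrupted with Cas9 and selected clones were pooled. Mouse KPC lines, grown untreated and labelled WT, came from a primary tumor and from liver mets and were described as matched and isogenic; the labels give no age or strain. Each group was represented by a single region list with a score per region, so no value per replicate and no test between groups was possible, and a knockout made by small cuts in exons leaves no trace that such a list can check.

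Basal-like pancreatic tumors express genes that the classical, gland-forming subtype keeps low, among them genes of stratified epithelium. In skin and other squamous tissue the transcription factor p63 works with AP-1, TEAD and grainyhead-like factors at enhancers of basal keratins, desmosomal cadherins and the laminin of basal cells, and cornified envelope genes follow later in differentiation. The TP63 gene has an upstream promoter, which gives the TAp63 forms, and an internal promoter, which gives the ΔNp63 forms typical of basal keratinocytes. An accessible promoter does not by itself mean that a gene is transcribed.

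The sequences below show the letters under the regions on which the comparisons turn, each up to 200 bases around the region's center on the plus strand, with annotated exons left out. Capitals mark AP-1 (TGANTCA) matches, the only ones found in them among the 8 motifs searched. The first set holds the highest-scoring region near a member that was present in a single list of its pair, except that 2 stronger mets-only regions near Lama3 (percentiles 56.2 and 45.4) are not shown. The control-only region lay in an intron of LEMD1-DT, 3047 bp from a LEMD1 start site, and the other 3 were intergenic.
Control-only, near LEMD1, hg38 chr1:205459039-205459238: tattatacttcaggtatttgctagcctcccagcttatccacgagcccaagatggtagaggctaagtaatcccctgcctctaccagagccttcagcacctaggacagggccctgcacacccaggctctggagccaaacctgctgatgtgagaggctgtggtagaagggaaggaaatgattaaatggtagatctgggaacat
HNF4G-KO-only, near KRT17, hg38 chr17:41618939-41619138: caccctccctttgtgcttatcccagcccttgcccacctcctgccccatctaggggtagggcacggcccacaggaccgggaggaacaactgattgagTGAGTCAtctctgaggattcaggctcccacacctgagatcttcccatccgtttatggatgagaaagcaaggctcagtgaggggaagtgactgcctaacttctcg
Primary tumor-only, near Sprr1b, mm10 chr3:92410310-92410509: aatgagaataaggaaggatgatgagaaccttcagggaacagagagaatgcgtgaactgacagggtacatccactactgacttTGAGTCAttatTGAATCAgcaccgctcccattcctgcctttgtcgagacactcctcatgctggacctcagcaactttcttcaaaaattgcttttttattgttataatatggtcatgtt
Mets-only, near Krt15, mm10 chr11:100166753-100166952: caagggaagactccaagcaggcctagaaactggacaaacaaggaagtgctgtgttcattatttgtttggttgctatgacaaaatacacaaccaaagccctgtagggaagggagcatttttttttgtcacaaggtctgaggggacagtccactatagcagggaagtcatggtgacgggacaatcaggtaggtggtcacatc

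The second set holds shared regions whose rank moved far. The S100a2 region lay in an intron of Gm42674 and at the S100a4 start site, and the TNS4 and Krt17 regions were intergenic. The TNS4 value comes from a wide HNF4G-KO region that also overlaps a control region of like rank, described with that gene.
Largest rise, control to HNF4G-KO, near TNS4, hg38 chr17:40532709-40532908: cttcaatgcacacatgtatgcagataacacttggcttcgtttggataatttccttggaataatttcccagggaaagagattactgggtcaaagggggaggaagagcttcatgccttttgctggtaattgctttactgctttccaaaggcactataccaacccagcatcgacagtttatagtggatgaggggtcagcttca
Largest fall, primary tumor to mets, near Krt17, mm10 chr11:100271079-100271278: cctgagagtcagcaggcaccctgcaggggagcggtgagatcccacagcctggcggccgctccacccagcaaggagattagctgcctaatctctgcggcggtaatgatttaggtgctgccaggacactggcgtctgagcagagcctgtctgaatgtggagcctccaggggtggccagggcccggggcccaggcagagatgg
Largest rise, primary tumor to mets, near S100a2, mm10 chr3:90603644-90603770: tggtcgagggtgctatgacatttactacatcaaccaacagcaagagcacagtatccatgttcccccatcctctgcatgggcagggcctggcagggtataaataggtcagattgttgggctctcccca

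A last set, added after its values were seen, shows the regions at the upstream start sites of TP63 and at the start site of SPRR1B, both just 5′ of the gene.
TP63 upstream promoter, hg38 chr3:189631101-189631300: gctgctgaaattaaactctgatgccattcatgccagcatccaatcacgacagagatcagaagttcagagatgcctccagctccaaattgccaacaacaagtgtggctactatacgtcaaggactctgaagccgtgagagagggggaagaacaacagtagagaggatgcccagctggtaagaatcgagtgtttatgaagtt
SPRR1B promoter, hg38 chr1:153030966-153031165: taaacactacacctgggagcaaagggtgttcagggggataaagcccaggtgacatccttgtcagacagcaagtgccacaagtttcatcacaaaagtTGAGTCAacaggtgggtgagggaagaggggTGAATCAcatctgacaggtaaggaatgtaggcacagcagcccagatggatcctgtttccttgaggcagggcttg

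Scores have no stated scale, so each region was given its percentile within its own list, where 100 is the highest score. A promoter region was one within 1 kb of an annotated start site, a shared region overlapped the other list of its pair by at least 1 bp, and a change is the percentile in the second list minus that in the first. The pairs were control to HNF4G-KO and primary tumor to mets. Counts for single genes stand beside these shares over all regions. Of all shared regions, 33.6% ranked lower and 7.75% higher by 10 points or more in HNF4G-KO, and 12.4% and 30.8% in mets. Control-only regions made up 25.0% of their list, HNF4G-KO-only 6.76%, tumor-only 8.51% and mets-only 20.2%. Intervals are 95% Wilson intervals and cover counting error only. The depth behind each list is unknown.

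In HPAF-II, promoters of the basal and squamous genes were open about as often as those of other genes. A promoter region was present for 25 of 34 members in control (73.5%, 56.9 to 85.4), where 74.8% of all 20046 protein-coding genes had one, and for 25 of 34 in HNF4G-KO, where 72.7% did. Both lists had one for 24 members. In control their percentiles ran from 20.0 (KRT17) to 98.5 (LAMA3), with a median of 81.3, and in HNF4G-KO from 7.12 (KRT6A) to 97.3 (KRT16), with a median of 83.1. Neither list had one for VGLL1, KRT6B, KRT13, KRT14, LY6D, SERPINB3, SERPINB4 or ANXA8L1, although each had regions within 50 kb. A promoter region was present in a single list for 2 members (5.88%), KRT6C and KRT6A, against 3.32% of protein-coding genes. The highest-scoring promoter region of a member can lie inside the gene, as in both lists for TRIM29, LEMD1, FAM83A, KRT16, LAMA3, CTSV and DHRS9.

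**Figure D1:**
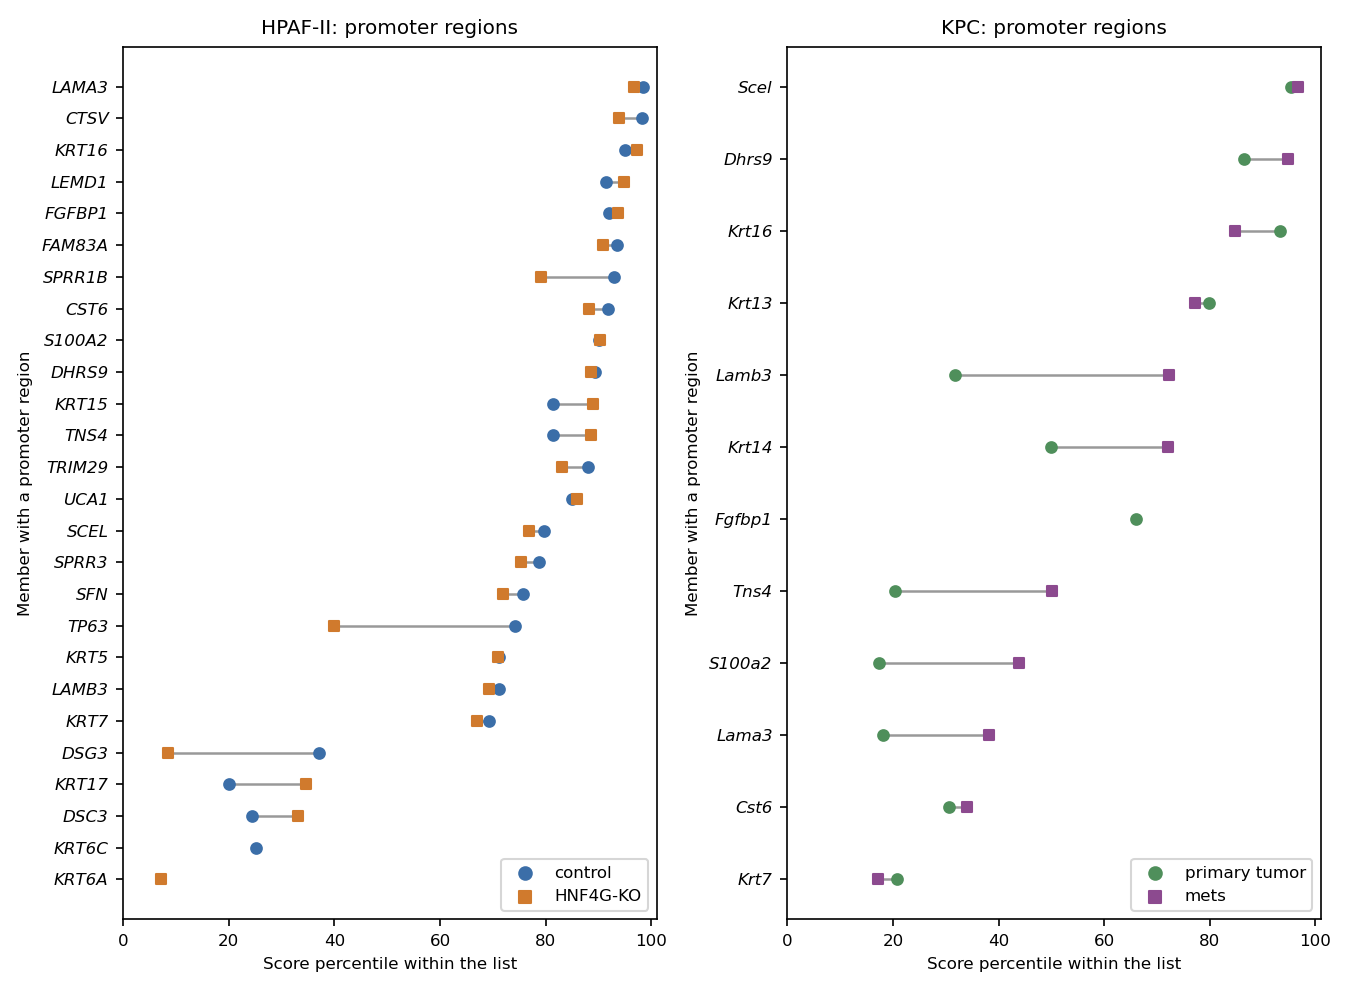
Score percentile (0 to 100, within each list) of the highest-scoring promoter region of every member that had one, for HPAF-II (left) and KPC (right); circles are control or primary tumor, squares HNF4G-KO or mets, and a grey line joins the values of a member. TP63 (74.2 and 40.0) and DSG3 (37.2 and 8.54) stand out by long lines at left, and Lamb3, Tns4, S100a2, Krt14 and Lama3 lie to the right in mets.

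Among the regulators and signaling genes, TP63 differed most in rank between control and HNF4G-KO. The region at its upstream start sites spanned hg38 chr3:189630752-189631650 in control, at percentile 74.2, and chr3:189630714-189631357 in HNF4G-KO, at percentile 40.0, where it ended 32 bp short of the first start site. At the internal start sites, chr3:189789659 to 189789801, neither list had a region within 1 kb, and the nearest was 1684 bp away in control (percentile 35.5) and 1565 bp away in HNF4G-KO (24.6).

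TP63 had 9 regions within 50 kb of a start site in control and 6 in HNF4G-KO. All 6 shared regions ranked lower in HNF4G-KO, 5 of them by 10 points or more, with changes from -34.2 to -7.71. Ranked among shared regions only, which takes out the different length of the lists, the promoter change was -29.8, and 2 of the 6 changes turned slightly positive (4.17 and 0.84). The 3 control-only regions, all in the gene, had percentiles of 3.24, 17.9 and 46.5. The regions 30407 and 34872 bp downstream of the internal start sites had percentiles of 67.4 and 68.6 in control and 51.2 and 47.1 in HNF4G-KO.

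**Figure D2:**
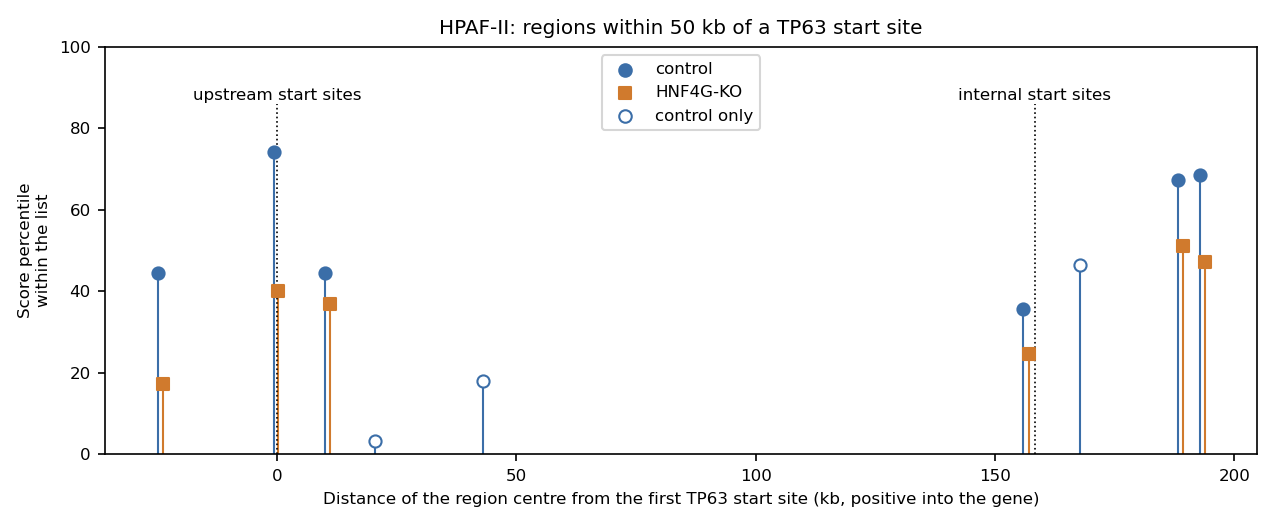
Score percentile of each region within 50 kb of a TP63 start site (vertical axis) against the distance of its center from the first start site in kb (horizontal axis), for control (circles, open where control-only) and HNF4G-KO (squares); symbols are offset slightly to either side and dotted lines mark both groups of start sites. Every square lies below its circle, and no region stands at the internal start sites.

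TRIM29, a p63-linked gene of basal epithelium, had its highest-scoring promoter region inside the gene, at like rank in both lists (88.0 and 83.1). It had 23 regions in control and 20 in HNF4G-KO, with 4 control-only. SFN, which encodes stratifin of keratinocytes, had 9 and 10 regions, none in a single list, and a promoter region at 75.8 and 72.0. TNS4, a tensin-family focal adhesion gene, had 21 regions in each list, 3 control-only and 4 HNF4G-KO-only, and its promoter region ranked at 81.3 and 88.6. The largest rise near a member, from 1.94 to 61.1, lay 30998 bp from a TNS4 start site and 28016 bp from CCR7, its nearest protein-coding gene. The HNF4G-KO region there was wide (1181 bp) and had its longest overlap with another control region, at percentile 61.8, a change of -0.67, so by that overlap the place did not rank higher in HNF4G-KO.

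LEMD1, a cancer-testis gene, had 16 regions in control, of which 6 were control-only, and 12 in HNF4G-KO. Its promoter region, inside the gene, ranked at 91.4 and 94.8. Of its 10 shared regions, 5 ranked lower in HNF4G-KO by 10 points or more and none higher by as much.

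FAM83A, an EGFR and MAPK signaling gene, had promoter regions at 93.5 and 90.8, inside the gene. The long noncoding gene UCA1 had them at 85.0 and 85.8. VGLL1, a TEAD cofactor gene, had no promoter region and 4 shared regions, 2 of them lower by 10 points or more.

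Type II keratin genes on chromosome 12 had the largest share of control-only regions of the 6 functional groups, 10 of 37 (27.0%), beside 25.0% of all control regions. KRT5, the basal cell keratin that pairs with KRT14, had a promoter region of equal rank (71.2 and 71.0) upstream of the gene. It had 11 regions in control and 8 in HNF4G-KO. Its 7 shared regions had a median change of -10.6, with 4 lower by 10 points or more and none higher by as much. Ranked among shared regions, 3 of these 7 changes were above 0.

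The genes of keratin 6, induced in injured and hyperproliferative epithelium, had weak promoter regions. The KRT6C promoter region (hg38 chr12:52473785-52474130) was control-only at percentile 25.2, and the KRT6A promoter region (chr12:52493350-52493578) was HNF4G-KO-only at percentile 7.12. KRT6A, KRT6B and KRT6C are near-identical copies, as are SERPINB3 with SERPINB4 and ANXA8L1 with its paralogs, so reads that match several copies make the assignment of their regions uncertain. KRT7, a keratin of simple ductal epithelium, had 19 and 18 regions and promoter percentiles of 69.3 and 67.0.

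Near the type I keratins on chromosome 17, 2 of 27 control regions were control-only (7.41%), beside 25.0% of all, and 3 of 28 HNF4G-KO regions were HNF4G-KO-only (10.7%), beside 6.76% of all. KRT17, a keratin of basal-like tumors, was, by the highest-scoring promoter region of each of the 24 members with a shared one, the only member higher by 10 points or more, from 20.0 to 34.5, at hg38 chr17:41625684-41625921 upstream of the gene. The strongest HNF4G-KO-only region near any member (percentile 31.3) lay 1666 bp from another KRT17 start site, and its sequence above holds an AP-1 match at its center. KRT16 had promoter percentiles of 95.1 and 97.3 and KRT15 of 81.3 and 89.0. KRT14 and KRT13 had no promoter region in either list, although KRT14 had 13 regions within 50 kb in each, shared in part with KRT15, KRT16 and KRT17.

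Of 56 shared regions near adhesion and basement membrane genes, 16 ranked lower in HNF4G-KO by 10 points or more and 3 higher, beside 33.6% and 7.75% of all shared regions. Their median change was -5.09, beside -4.65, and 2.39 when ranked among shared regions, beside 0.68. DSG3, the desmosomal cadherin of the basal layer, had a promoter region at percentile 37.2 in control (hg38 chr18:31447540-31447889, across the start site) and 8.54 in HNF4G-KO. The change was -28.6, and -14.8 when ranked among shared regions. The strongest region near DSG3, 97.4 in both lists, lay upstream. DSC3, its desmocollin partner, ranked at 24.4 and 33.2 at the promoter.

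LAMA3 and LAMB3 encode the α3 and β3 chains of the laminin that anchors basal cells. LAMA3 had the most regions of any member, 29 in control and 26 in HNF4G-KO, and 7 of 24 shared regions were lower by 10 points or more, against 1 higher. Its promoter region at an internal start site ranked at 98.5 and 96.6, and that at the upstream start sites at 67.7 and 84.6. LAMB3 had 22 and 18 regions, 5 control-only, and likewise 7 of 17 shared regions lower and 1 higher. The LAMB3 promoter region of control (71.1) overlapped 2 regions of HNF4G-KO, which ranked at 32.4 for the longest overlap, a change of -38.7, and at 69.2 for the other, so a weaker LAMB3 promoter is not shown.

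Among cornified envelope and keratinocyte surface genes, SPRR1B, a cross-linked envelope precursor, had its promoter region (hg38 chr1:153030816-153031315) at 92.9 in control and 79.2 in HNF4G-KO. It had 10 regions in control, 3 of them control-only, and 7 in HNF4G-KO, and all 7 shared regions ranked lower, 4 by 10 points or more. Ranked among shared regions, the median of the 7 changes was -7.88, and those of 2.99, 1.85 and 8.32 were above 0. The neighboring SPRR3 promoter changed little (78.7 and 75.3). S100A2, a p63 target gene of the S100 family, had 20 and 21 regions and promoter percentiles of 90.0 and 90.2. SCEL stood at 79.6 and 76.8, and LY6D had no promoter region and no control-only region.

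The inhibitors, protease and secreted factors had the smallest share of control-only regions, 2 of 51 (3.92%). Promoter percentiles were 91.8 and 88.1 for CST6, a cysteine protease inhibitor gene, 98.3 and 93.9 for CTSV, a cathepsin gene, 91.9 and 93.7 for FGFBP1, which encodes an FGF carrier, and 89.4 and 88.5 for the retinol dehydrogenase gene DHRS9. SERPINB3, SERPINB4 and ANXA8L1 had 5, 6 and 5 control regions, none control-only.

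**Figure D3:**
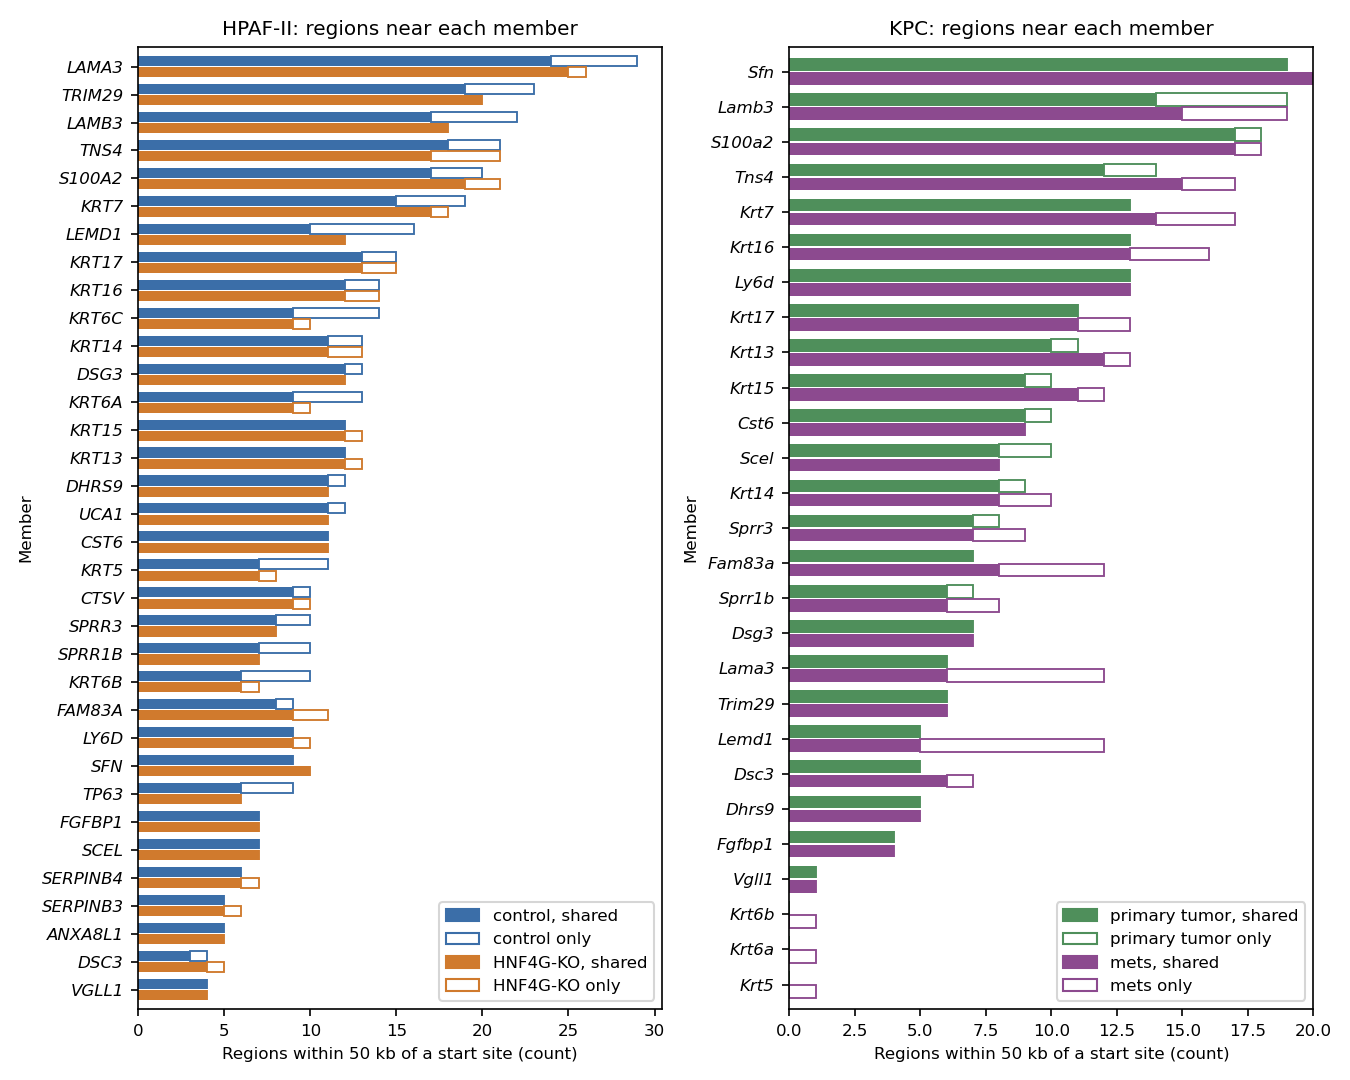
Number of regions within 50 kb of a start site for each member (horizontal axis), for HPAF-II (left; upper bar control, lower bar HNF4G-KO) and KPC (right; upper bar primary tumor, lower bar mets); filled parts are shared with the other list of the pair and open parts are in that list only. LAMA3 (29 and 26) and Sfn (19 and 20) lead, and Lemd1 and Lama3 have long open bars in mets.

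Counted over all members, the share of control-only regions was lower near them than over the whole list. Control-only regions made up 50 of 334 (15.0%, 11.5 to 19.2), beside 25.0% of all control regions, and HNF4G-KO-only regions 18 of 313 (5.75%, 3.67 to 8.91), beside 6.76%. Regions near members had a median percentile of 59.4 in control against 50.1 over the whole list, and control-only regions near members a median of 14.2 against 17.9 for all control-only regions. No single-list region near a member was in the upper decile of its list, and few single-list regions were anywhere. Over all regions, those in the upper decile were 3 of 29475 in control, 0 of 6556 in HNF4G-KO, 4 of 5794 in primary tumor and 45 of 16355 in mets.

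Shared regions near the members ranked slightly lower in HNF4G-KO, with a median change of -2.26 over 284 regions (95% interval by order statistics -3.60 to -1.19), beside -4.65 over all 88632 shared regions. They were lower by 10 points or more in 76 (26.8%, 21.9 to 32.2), beside 33.6% of all shared regions, and higher by as much in 22 (7.75%), beside 7.75%. The direction depended on the ranking. Among shared regions only, the median was 3.21, beside 0.68 over all shared regions, and 40 (14.1%) were lower and 74 (26.1%) higher by 10 points or more, beside 17.1% and 20.5%. Over the members, 23 medians were below 0 and 11 above with whole-list percentiles, and 8 and 26 with ranks among shared regions. No like count was made for other genes. The medians over all shared regions, -4.65 and 0.68, lay on the same sides of 0, so these counts are not particular to the members. The highest-scoring promoter region of a member was lower by 10 points or more for 4 of 24 members (TP63, LAMB3, DSG3 and SPRR1B), beside 11.8% of genes, and higher for 1, beside 4.87%. LAMB3 is among the 4 only by the longest overlap of its control region, since the highest-scoring promoter regions of the lists ranked at 71.1 and 69.2. Other promoter regions also moved, those of LAMA3 at the upstream start sites (67.7 to 84.6), of KRT7 at hg38 chr12:52243915-52244393 (38.7 to 51.0) and of TRIM29 at chr11:120137848-120138352 (61.3 to 46.7).

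**Figure D4:**
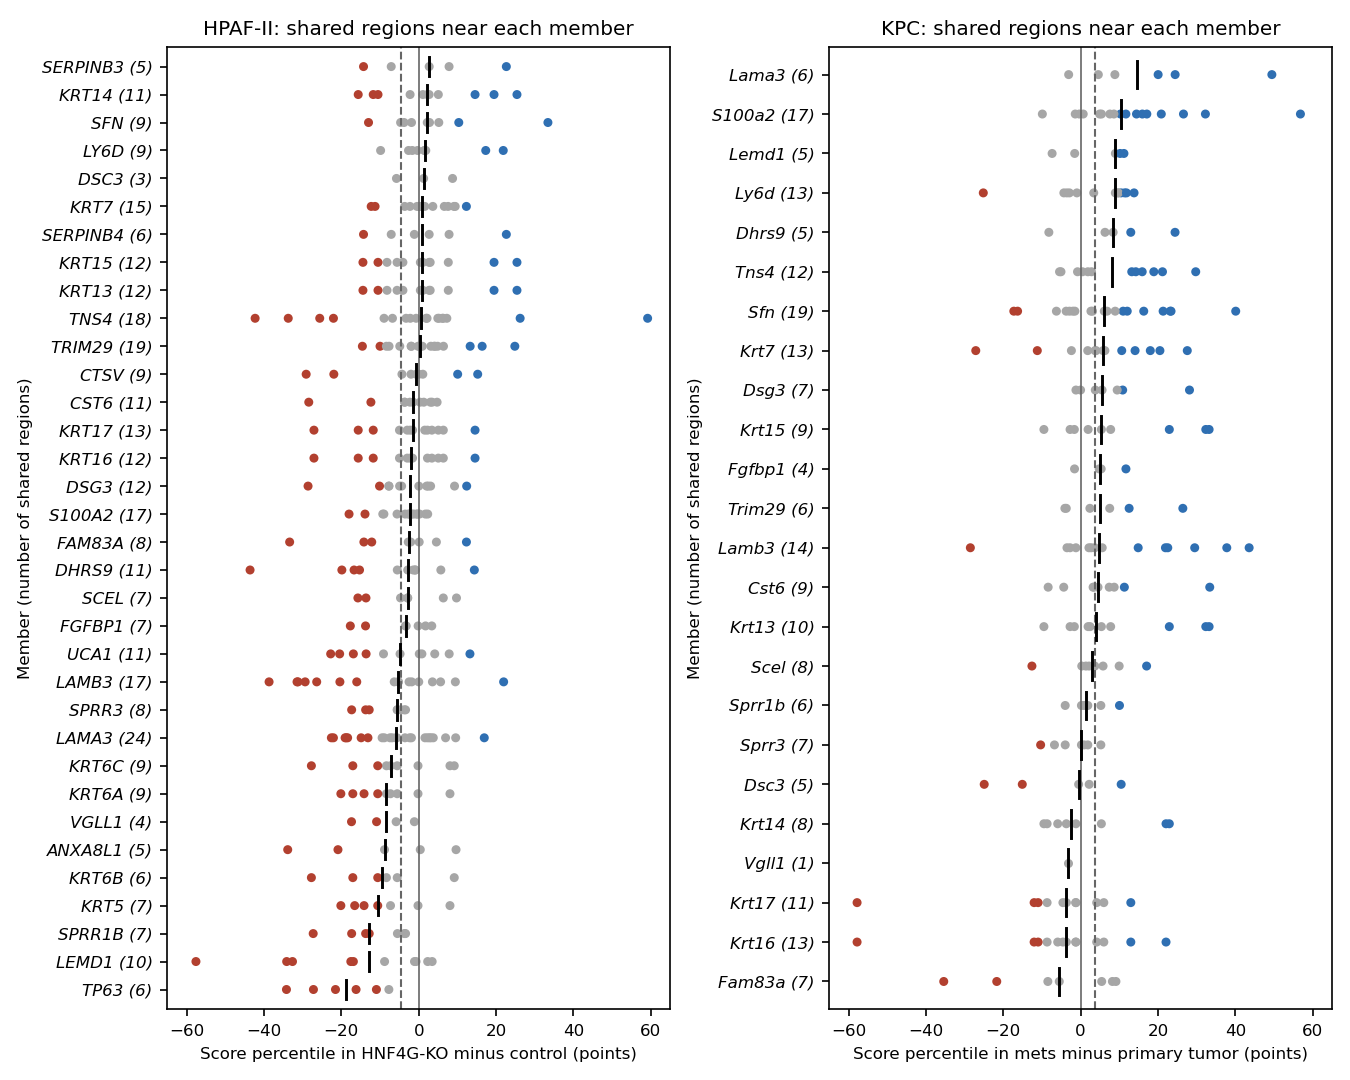
Change in score percentile of each shared region within 50 kb of a member (horizontal axis, points), for HNF4G-KO minus control (left) and mets minus primary tumor (right), with members sorted by their median (black bar); red and blue points moved down or up by 10 points or more, and the dashed line is the median of all shared regions. TP63 has the lowest median at left (-18.9) and Lama3 the highest at right (14.5); regions near several members appear in each of their rows.

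In KPC cells the share of these promoters that were open was below that of all genes, but its intervals included that share. A promoter region was present for 12 of 27 members in primary tumor (44.4%, 27.6 to 62.7), beside 57.9% of protein-coding genes, and for 11 of 27 in mets (40.7%, 24.5 to 59.3), beside 59.1%. Neither list had one for 15 members. A promoter region in a single list was counted for 1 member (3.70%), Fgfbp1, beside 3.25% of genes. That region lay 975 bp from the start site in primary tumor and 1050 bp in mets, was shared, and ranked higher in mets (66.1 to 77.8), so the call came from its edge crossing 1 kb.

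Of the 27 members found in both species, 10 had a promoter region in both cell systems, 12 in HPAF-II only, 2 in KPC only and 3 in neither. The KPC-only ones were Krt13 (79.9 in primary tumor and 77.2 in mets) and Krt14. Among the HPAF-II-only ones were TRIM29, SFN, KRT5, KRT15, KRT17, DSG3 and DSC3. These lists differ in species, annotation and length, and their percentiles were not compared.

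The mouse gene Trp63, added beside the members because its symbol differs, had no promoter region in either KPC list. Its 4 regions in primary tumor, 2 of them tumor-only, and 2 in mets lay away from the start sites. At the internal start site the nearest region was 23993 bp away in primary tumor (percentile 84.0) and 24036 bp away in mets (85.3). Krt5, Krt6a and Krt6b had no region within 50 kb in primary tumor and shared a single mets-only region of percentile 30.4. Krt14, the partner of Krt5, had an open promoter that ranked higher in mets, from 49.95 to 72.0, at mm10 chr11:100207511-100207927. Krt17 had no promoter region and 11 regions in primary tumor and 13 in mets, and the largest fall near any mouse member, from 59.5 to 1.68, lay 9920 bp from its start site and 1078 bp from that of Krt42.

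Promoter regions of 6 members ranked higher in mets by 10 points or more. They were those of Tns4 (20.4 to 50.2), S100a2 (17.3 to 43.9), Krt14, Lama3 (18.1 to 38.2), Lamb3 and Fgfbp1. The 12 shared promoter regions had a median change of 10.1 beside 1.42 over 12468 genes, and those 6 of 12 stood beside 14.8% of genes. Genes were not matched for rank in primary tumor, where promoter regions of members had a median percentile of 40.8. The 1 lower by as much, beside 9.12%, was that of Krt7, where the longest overlap gave -11.2 and the higher-scoring of 2 overlapping regions -3.43. Ranked among shared regions, 4 of 12 were higher and 2 lower by 10 points or more, beside 1231 and 1987 of 12468 genes. Krt16 (93.4 and 84.7), Dhrs9 (86.4 and 94.8), Scel (95.4 and 96.8), Krt13 and Cst6 (30.6 and 34.1) moved by less.

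The laminin gene Lama3 had 6 regions in primary tumor and 12 in mets, 6 of them mets-only, and its 6 shared regions had a median change of 14.5. One mets-only region stood at the internal Lama3 start site, at percentile 14.4, and a shared region 7697 bp downstream of that site ranked at 4.65 and 54.1. Lamb3 had 19 regions in each list, 5 tumor-only and 4 mets-only, and 6 of 14 shared regions ranked higher by 10 points or more against 1 lower. Of all shared regions, 30.8% ranked higher and 12.4% lower by as much. Ranked among shared regions, median changes were 10.1 for Lama3 and 0.30 for Lamb3, beside 0.99 for all. The best Lamb3 promoter regions ranked at 31.7 and 72.2, at different start sites. The change paired from the first was 14.9. The region paired with the second ranked at 28.6 in primary tumor, a change of 43.6. Another Lamb3 promoter region went from 17.3 to 39.3.

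S100a2 had 18 regions in each list, and 9 of 17 shared regions ranked higher by 10 points or more with none lower by as much. The largest, from 3.33 to 60.2, stood at the start site of S100a4, a gene of the same cluster. Tns4 had 14 and 17 regions, with 6 of 12 shared regions higher and none lower. Of all shared regions, 30.8% ranked higher and 12.4% lower by as much. Ranked among shared regions, median changes were 7.93 for S100a2 and 4.64 for Tns4, beside 0.99 for all. Sfn had 19 and 20 regions, none in a single list, but no promoter region. Krt7, Ly6d and Krt16 each had 13 regions in primary tumor, and 17, 13 and 16 in mets.

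Lemd1 had 5 regions in primary tumor and 12 in mets, of which 7 were mets-only at percentiles of 1.81 to 33.9. Of all mets regions, 20.2% were mets-only. Fam83a had 7 and 12 regions, 4 mets-only, and its shared regions had a median change of -5.51. Dsg3 (7 and 7), Trim29 (6 and 6), Vgll1 (1 and 1) and Dsc3 (5 and 7) had no promoter region, nor had Sprr1b (7 and 8) or Sprr3 (8 and 9). The strongest tumor-only region lay 28246 bp from Sprr1b and 2286 bp from Sprr2i, and its sequence above holds a pair of AP-1 matches.

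Over all mouse members, tumor-only regions made up 13 of 195 (6.67%, 3.94 to 11.1), beside 8.51% of all, and mets-only regions 35 of 227 (15.4%, 11.3 to 20.7), beside 20.2%. The 182 shared regions had a median change of 4.87 (2.83 to 6.32) beside 3.67 over all 62280. They were higher by 10 points or more in 59 (32.4%), beside 30.8%, and lower in 15 (8.24%), beside 12.4%. Among shared regions only, the median was 1.66 beside 0.99, with 39 (21.4%) higher beside 22.3% and 25 (13.7%) lower beside 17.9%.

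Regions near a member need not belong to it. A member was the nearest protein-coding gene for 181 of 334 regions in control and 76 of 195 in primary tumor, and 55 and 29 regions lay within 50 kb of more than 1 member. Of the 50 control-only regions 24 had a member as the nearest gene, and of the 35 mets-only regions 15.

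Letters of an AP-1 motif were common in these regions. In control, 159 of 334 member regions held TGANTCA (47.6%, 42.3 to 53.0), beside 39.1% of all control regions, and in HNF4G-KO 147 of 313 (47.0%) beside 39.2%. Member regions were wider, with a median of 504 bp against 462 bp in control, and in windows of equal length, 200 bp around the center, the control shares were 26.9% and 24.3%. TEAD letters (ACATTCCA) were in 22 control member regions (6.59%, 4.39 to 9.77) beside 3.60%, and in the central windows in 8 (2.40%) beside 1.68%.

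The p63 pattern, CATG and CATG set 6 bases apart, was in 1 of 334 control member regions (0.30%) beside 1.74%, and in 6 of 195 primary tumor member regions (3.08%, 1.42 to 6.55) beside 1.60%. HNF4 letters (CAAAGTCCA) were in 1 control member region (0.30%) beside 1.60%. Grainyhead-like letters (AACNNGTT) were in 6.89% of control member regions beside 7.78% of all. FOXA letters (TGTTTAC) were in 8.08% beside 9.76%. GATA letters (AGATAAG) were in 6.29% beside 6.63%. KLF letters (GGGNGTGG) were in 24.6% beside 23.1%. In primary tumor AP-1 letters were in 50.3% beside 46.0% and KLF letters in 30.8% beside 23.2%. Both strands were searched; the AP-1, grainyhead-like and p63 patterns read the same on both.

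In HPAF-II, promoter regions were present in control and HNF4G-KO for 13 and 13 of 14 squamous transcription factor genes, 14 and 14 of 16 desmosome and hemidesmosome genes, 11 and 8 of 16 cornified envelope genes, 5 and 5 of 5 simple epithelial keratins and 3 and 4 of 8 other stratified keratins. These stood beside 74.8% and 72.7% of all protein-coding genes. Median changes of their shared regions were -3.42, -2.44, -4.32, 2.02 and -0.34, beside -4.65 for all shared regions, and when ranked among shared regions 1.41, 3.00, 0.50, 7.91 and 5.82, beside 0.68. The cornified envelope genes with a control-only promoter region were FLG (percentile 30.3), SPRR2A (25.7) and LCE3D (14.6). Of all protein-coding genes, 3.32% had a promoter region in a single list of this pair. In KPC the numbers were 7 and 8 of 12, 13 and 13 of 15, 5 and 5 of 14, 5 and 5 of 5, and 4 and 4 of 8, in the same order, beside 57.9% and 59.1% of genes.

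Both cell systems had promoter regions at ductal epithelial markers (EPCAM, CDH1, KRT8, KRT18, KRT19, CLDN4 and ELF3), 7 of 7 in control and HNF4G-KO and 6 of 7 in primary tumor and mets. Fibroblast markers had 4 of 7 in both HPAF-II lists and 2 of 7 in both KPC lists, leukocyte markers 3 of 6 and 1 of 5, and acinar markers 2 and 4 of 6 in control and HNF4G-KO and 0 of 5 in KPC. These small counts stood beside 74.8% and 72.7% of all protein-coding genes in HPAF-II and 57.9% and 59.1% in KPC. The acinar markers with an HNF4G-KO-only promoter region were CPA1 (percentile 14.8) and AMY2A (5.19). In this pair 3.32% of all protein-coding genes had a promoter region in a single list. The part of these markers in the values above was not tested.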

How the data were processed

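Omni-ATAC libraries were made from 16 samples in 4 groups, assigned from their titles. The authors deposited, for each group, a single list of regions in BED format. Each deposited score came from region calling by the authors, on a scale that no source explains. The submitters' processing notes name Bowtie2 2.2.6, MACS2 2.1.1.20160309 and DiffBind, and the builds hg38 (GRCh38) and mm10 (GRCm38); the peak threshold, the shift of reads to insertion sites and the handling of replicates are not given for ATAC-seq in the sources used here, although for ChIP-seq replicates were merged before peak calling with MACS2 and a calling threshold is stated. How replicates were pooled can change which weak regions are listed. No region ran past a chromosome end in these builds. Sequences of regions on human chromosome 8 and mouse chromosome 18 were not printed, and the largest fall from control to HNF4G-KO is not reported here. Reads per replicate and depth were not analysed here.

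The members, gene lists and alternatives were chosen with earlier results of these data known. Start sites came from GENCODE 44 (human) and M21 (mouse). Scores were ranked within their list, ties by their mean rank, and each region was paired with its longest overlap of at least 1 bp. All members are accounted for; those named in full had a promoter region in a single list or one that moved by 10 points or more, were among the 5 with most regions in control or primary tumor, or were TP63, KRT5, KRT14 or KRT17. Wilson intervals used scipy 1.17.1 under Python 3.11.15 with numpy 2.4.6, and plots used matplotlib 3.10.9. The overlap code was tested on simulated data. Alternatives changed the promoter distance, window, overlap, score limit, list size, ranking, pairing and motif window. Start sites of TP63 less than 5000 bp apart were grouped.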

Additional observations from a re-analysis of the deposited data

How the results depend on the processing

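No paired analysis was possible because each group has a single list with no value per replicate, and no replicate could be left out. Of 94 alternative values for the counts, shares and medians over members, 72 stayed within 1.5 times the count or within the interval of the value reported, 21 moved and 1 reversed. The reversed value was the control to HNF4G-KO median, 3.21 when ranked among shared regions; its difference from all shared regions stayed positive. That ranking also gave 14.1% lower and 26.1% higher by 10 points or more, and for primary tumor to mets a median of 1.66, with 13.7% lower and 21.4% higher. By construction, ranks among shared regions leave out regions that only the longer list holds. With the upper 50% of each list, promoter regions in a single list numbered 1 in HPAF-II and 3 in KPC, and members with a promoter region 6 in primary tumor and 7 in mets. Regions of the upper 50%, set against the whole other list, had single-list shares of 0% in control, HNF4G-KO and primary tumor and 0.83% in mets. All single-list regions had upper quartiles at percentiles of 30.3, 20.4, 22.1 and 33.8, in the same order, so shares near 0% were largely set in advance. With lists of equal length, the shares were 7.34% in control, 11.5% in HNF4G-KO and 12.3% in primary tumor, beside 15.1%, 12.7% and 15.6% of all regions. Within 10 kb, the 53 shared mouse regions had a median change of 8.62, or 4.96 above all shared regions, with 3.77% lower and 43.4% higher. With a start site inside the region, 2 mouse promoters were in a single list. Taking the highest-scoring overlap, an alternative chosen after seeing the data, gave -1.86 for the LAMB3 promoter. Ranked among shared regions, the promoters of TNS4, KRT15 and DSC3 were higher by 12.6, 13.0 and 17.8 points, Krt16 was at -11.8, and Lamb3 and Fgfbp1 were below 10 points, at 9.74 and 9.54. The depth of the libraries is unknown and sets how many weak regions each list holds.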

Other observations

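Open promoters at the partner keratin genes KRT5 and KRT14 differed between the cell systems. In HPAF-II the type II keratin KRT5 had an open promoter (percentiles 71.2 and 71.0) and its type I partner KRT14 had none, while in KPC cells Krt14 had one (49.95 and 72.0) and Krt5 had no region within 50 kb in primary tumor. The ranked KRT5 regions lay upstream of the gene, within 1 kb of a start site. KRT5 has 9 annotated start sites and Krt5 has 1. KRT16 had a high-ranking promoter region in both HPAF-II lists (95.1 and 97.3), inside the gene. Krt16 had one in both KPC lists (93.4 and 84.7), at its only annotated start site, so the sites are not alike. The region upstream of Krt14 that lay within 50 kb of Krt14, Krt16 and Krt17 (mm10 chr11:100221451-100222372) was the strongest near any mouse member, at percentile 99.4 in primary tumor and 98.2 in mets.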
